A study of Bos taurus with 10 samples.

Results

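Annexins are the proteins described here, as their transcripts appeared on 10 Affymetrix bovine arrays of immature and in vitro matured (IVM) oocytes. The members are all probe sets whose single gene symbol is *ANXA1*, *ANXA2*, *ANXA3*, *ANXA4*, *ANXA5*, *ANXA6*, *ANXA7*, *ANXA8* or *ANXA11*. By this rule 7 of the 9 genes had a probe set, among 9155 genes named by a single symbol, with 11 probe sets in all among the 24016 tested. *ANXA7* and *ANXA8* had none under these symbols and were not analysed here, although the array holds a probe set for *ANXA8L1*, whose synonym is *ANXA8*. The immature group was 5 pools of denuded *Bos taurus* oocytes frozen at 0 h, and the IVM group was 5 pools taken after 24 h in maturation medium with fetal calf serum and epidermal growth factor, left within their cumulus until then. Each pool came from abattoir ovaries, each replicate number stands for a day of collection in the study's methods, and both groups were stripped of cumulus cells by pipetting before freezing. The values are log2 summaries of each probe set, already quantile normalized by the authors.

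Annexins bind negatively charged phospholipids when calcium rises, through a conserved core of repeated domains, while the amino-terminal tail differs between members and carries their partner sites. They work at the cytoplasmic face of membranes, in exocytosis, endocytosis, membrane repair and the link to actin, and some are also found outside the cell. In the ovary they are mostly known from somatic cells, and a rise of calcium in the oocyte accompanies fertilization.

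Of the 24016 probe sets, 9460 varied between arrays, taken as a span of at least 0.01 on the log2 scale, and the summary returned nearly one value on every array for the other 14556. The array medians ranged from 7.04 to 7.10. Poly-A control transcripts, which are designed to be added to a sample before labelling, lay between 6.85 and 7.24 on the immature and between 7.73 and 8.23 on the IVM arrays. Hybridization controls lay between 9.38 and 9.73 on immature replicates 1, 2 and 3 and between 10.75 and 11.22 on the other 7 arrays. Genes that mark the oocyte were found by symbol for 9 of the 15 listed, and all 9 varied. Their mean log2 value lay between 12.47 and 12.96 on the immature and between 9.76 and 11.06 on the IVM arrays, so the labelled cell type had its markers in both groups, at a lower level in the IVM group. The study's methods set the same number of oocytes for each array pool. They also set the same amount of total RNA for amplification, and the values were quantile normalized. The marker values therefore give no level per oocyte. For other cell types, bulk pools cannot tell fewer cells from less RNA per cell.

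Among the annexins, *ANXA1*, *ANXA2* and *ANXA3* rose and *ANXA11* fell between the immature and the IVM oocytes at an adjusted p under 0.05, and *ANXA4* and *ANXA5* did not pass. *ANXA1* had the largest difference of the 11 probe sets, 4.73 on the log2 scale, and *ANXA11* the largest fall, with -2.67. The difference of *ANXA3* was small, 0.29, and it turned to -0.64 when the arrays were centred on the poly-A controls. So 3 of the 11 probe sets were higher, where 15.5% of all probe sets tested were, and 1 was lower, where 15.0% were, or 4 in either direction against 30.5%. Among the 9460 probe sets that varied, 34.0% were higher, 31.7% lower and 65.7% either, against 4 of the 7 annexin probe sets that varied. The groups of these 4 did not overlap, as was so for 56.3% of all varying probe sets, 27.0% with IVM higher and 29.3% with IVM lower. Shares this near to the background are not a result about annexins as a family. In limma 5 of the 11 had an unadjusted p under 0.05. They were these 4 and the near-constant second probe set of *ANXA11*, whose difference was only -1.48e-08. The share of all probe sets at that unadjusted level was not counted. At the stricter cutoff, an adjusted p under 0.0001, no annexin passed (0 of 11 in limma). The study set 0.0001 as a false discovery rate in SAM over informative probe sets. By its own calls it named *ANXA1* among the transcripts higher after maturation. Of all probe sets, 0.974% were higher at this cutoff, 4.81% lower and 5.78% either. When only the 9460 varying probe sets were tested, *ANXA1* (adjusted p = 9.32e-06 from limma) and *ANXA11* (adjusted p = 5.31e-05) passed it, where 7.24% were higher, 17.8% lower and 25.1% either.

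**Figure D1:**
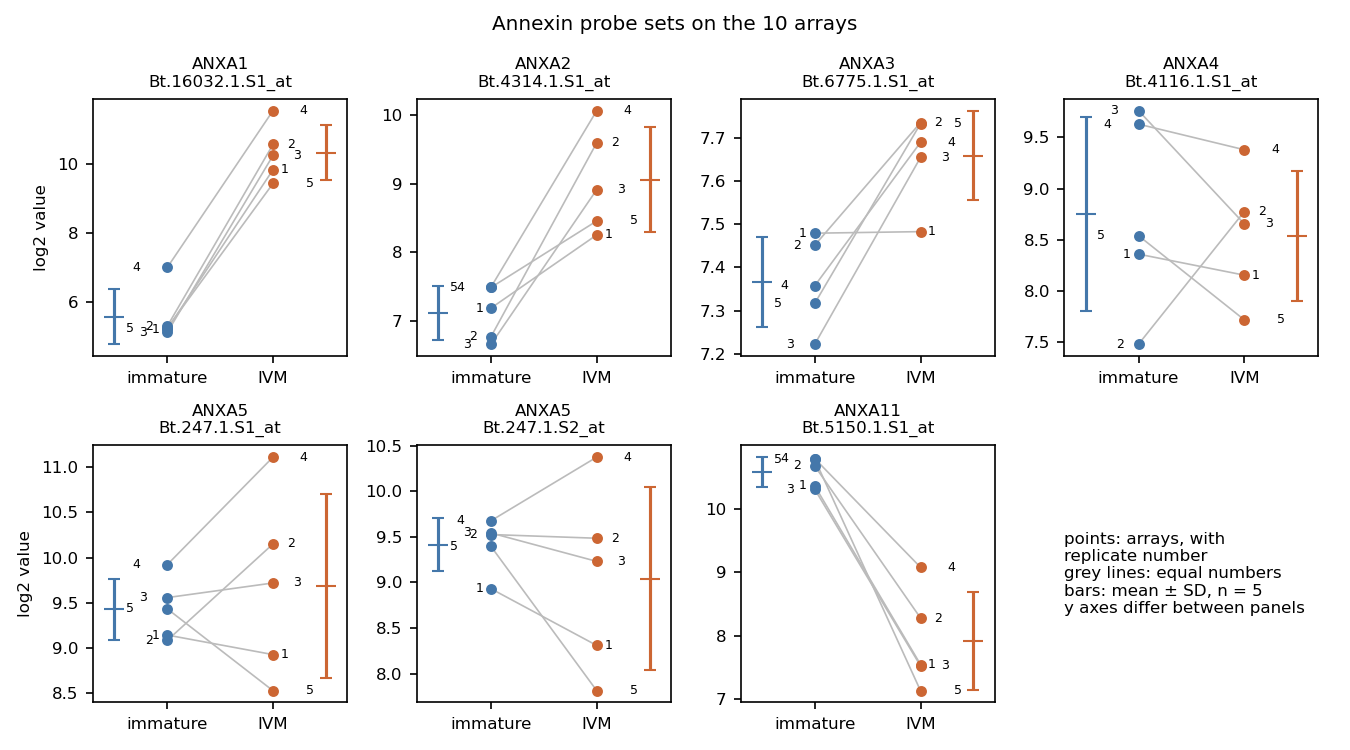
Log2 value of the 7 annexin probe sets that varied on each of the 10 arrays, for immature (blue) and IVM (orange) oocytes. Points are arrays with their replicate number, grey lines join equal numbers, and bars are the mean ± SD (n = 5). The groups do not overlap for *ANXA1*, *ANXA2*, *ANXA3* and *ANXA11*, and they overlap for *ANXA4* and for both probe sets of *ANXA5*.

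*ANXA1* binds phospholipids, is known to restrain phospholipase A2 and inflammation, and acts on formyl peptide receptors when released. Its probe set read 5.23, 5.31, 5.14, 7.01 and 5.26 on immature replicates 1 to 5. On IVM replicates 1 to 5 it read 9.83, 10.56, 10.24, 11.53 and 9.43. All IVM arrays were therefore above all immature arrays, and immature replicate 4 stood apart from the other 4 immature arrays, which lay within a narrow band. The mean went from 5.59 ± 0.80 (SD, n = 5) to 10.32 ± 0.80 (SD, n = 5). The difference was 4.73 (standard error 0.50, 95% interval 3.57 to 5.88, adjusted p = 1.77e-04 from limma), which is a 26.5-fold difference in the summarised values. All immature values lay below the array medians, 7.04 to 7.10, so the fold is set against low readings. Within equal replicate numbers the difference ran from 4.17 to 5.24 and was positive in 5 of 5. A difference at least as high was found in 0.391% of the varying probe sets. Without immature replicate 4 it was 5.08. In the study's qPCR time course, *ANXA1* was highest before 24 h. At 24 h it tended to be higher than at 0 h, but not significantly.

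*ANXA2* forms a complex with S100A10 at the plasma membrane, links membranes to actin, and at the cell surface is a receptor for plasminogen and its tissue activator. Its probe set read 7.18, 6.77, 6.66, 7.49 and 7.49 on immature replicates 1 to 5, and 8.25, 9.60, 8.92, 10.07 and 8.46 on IVM replicates 1 to 5. The lowest IVM array was above the highest immature array, and the IVM arrays spread more widely. The mean was 7.12 ± 0.39 (SD, n = 5) in immature and 9.06 ± 0.77 (SD, n = 5) in IVM oocytes. The difference was 1.94 (standard error 0.38, 95% interval 1.06 to 2.82, adjusted p = 0.00525 from limma), and it was positive in 5 of 5 replicate numbers. When immature replicates 4 and 5 alone were set against the IVM arrays, all 7 at one level of the hybridization controls, the difference was 1.57 and did not pass (adjusted p = 0.156 from limma).

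*ANXA3*, an annexin abundant in neutrophils, changed little. Its probe set read 7.48, 7.45, 7.22, 7.36 and 7.32 on immature replicates 1 to 5, and 7.48, 7.73, 7.65, 7.69 and 7.73 on IVM replicates 1 to 5. The groups did not overlap, but the lowest IVM array, replicate 1, exceeded immature replicate 1 by only 0.0036. The difference was 0.29 (standard error 0.07, 95% interval 0.14 to 0.44, adjusted p = 0.00964 from limma). With the replicate number as a block over all probe sets it did not pass (adjusted p = 0.0622), and neither did it with immature replicates 4 and 5 alone (0.32, adjusted p = 0.0569). With the block over the 9460 probe sets that varied it did (adjusted p = 0.0322).

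*ANXA11* has a long proline-rich tail, binds the calcium sensor PDCD6 and tethers RNA granules to lysosomes. It was the only annexin to fall among those tested here on the values as deposited. The varying probe set (suffix S1_at) read 10.36, 10.67, 10.31, 10.79 and 10.78 on immature replicates 1 to 5, and 7.54, 8.28, 7.52, 9.08 and 7.13 on IVM replicates 1 to 5. Immature arrays lay close together, above every IVM array, and the IVM arrays spread over a wide range with replicate 4 the highest. The mean went from 10.58 ± 0.23 (SD, n = 5) to 7.91 ± 0.77 (SD, n = 5). The difference was -2.67 (standard error 0.36, 95% interval -3.50 to -1.85, adjusted p = 6.80e-04 from limma), negative in 5 of 5 replicate numbers, from -3.65 to -1.71. Of the varying probe sets, 5.7% had a difference at least as low. Leaving out IVM replicate 4 gave -2.96 and an adjusted p of 8.45e-05, past the stricter threshold. A second probe set of the gene (suffix S2_at) stood at 6.71 on every array and gives no measure of a change.

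**Figure D2:**
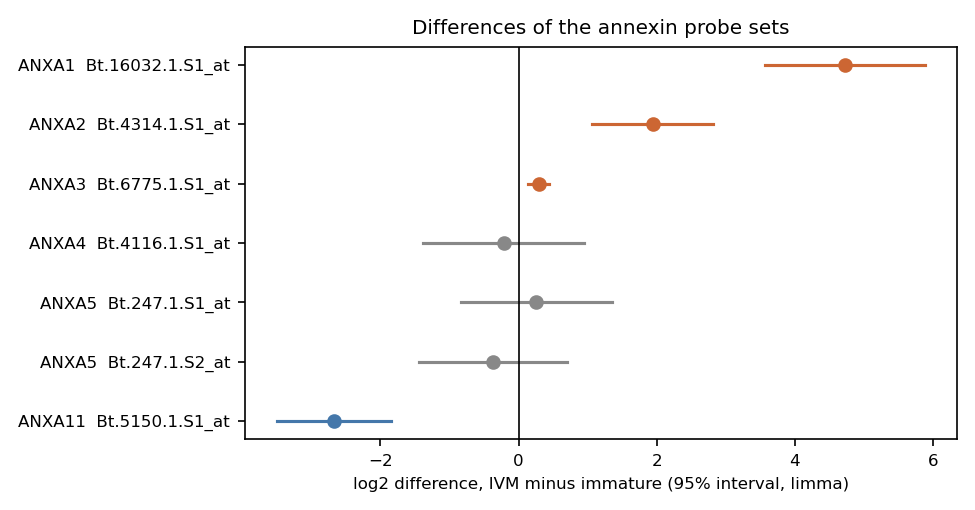
Log2 difference, IVM minus immature, of the 7 annexin probe sets that varied, with 95% intervals from limma over 5 arrays per group. Orange marks a higher and blue a lower value in IVM oocytes at an adjusted p under 0.05, and grey marks probe sets that did not pass. Only the intervals of *ANXA4* and of both *ANXA5* probe sets include 0.

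*ANXA5* binds phosphatidylserine, which is why it serves as a probe for dying cells, and it is an anticoagulant of the placental surface. It had 4 probe sets, and 2 of them varied, called S1 and S2 here after their suffix. S1 read 9.14, 9.08, 9.56, 9.92 and 9.43 on immature replicates 1 to 5, and 8.93, 10.15, 9.72, 11.11 and 8.53 on IVM replicates 1 to 5. S2 read 8.93, 9.53, 9.54, 9.68 and 9.40 on the immature and 8.31, 9.48, 9.23, 10.38 and 7.81 on the IVM arrays. In both probe sets the IVM arrays reached above and below the immature ones, and both ordered the IVM arrays as replicates 4, 2, 3, 1 and 5 from high to low. The SD was 0.34 and 0.29 in immature oocytes, and 1.02 and 1.01 in IVM oocytes (n = 5 each). The differences had opposite signs, 0.26 (95% interval -0.84 to 1.36, adjusted p = 0.770 from limma) and -0.37 (95% interval -1.44 to 0.70, adjusted p = 0.643), and the first turned to -0.10 without IVM replicate 4 and to -0.68 with centring on the poly-A controls. The other 2 probe sets stood at 6.68 and 7.48 on every array.

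*ANXA4*, an annexin of epithelial membranes and secretory vesicles, varied as much within a group as between groups. Its probe set read 8.36, 7.48, 9.76, 9.63 and 8.54 on immature replicates 1 to 5, and 8.16, 8.78, 8.66, 9.38 and 7.72 on IVM replicates 1 to 5. The IVM arrays lay within the range of the immature ones, whose lowest value was replicate 2 and highest replicate 3. The difference was -0.22 (95% interval -1.38 to 0.95, adjusted p = 0.838 from limma), and 4 of 5 replicate numbers were lower. An interval this wide does not show that the level stayed the same. With centring on the poly-A controls, *ANXA4* (-1.15, adjusted p = 0.0103 from limma) and *ANXA5* on S2 (-1.31, adjusted p = 0.00183) passed as lower, and without immature replicate 3 the difference of *ANXA4* was 0.034. *ANXA6*, the annexin with a duplicated core, had 1 probe set, which stood at 6.91 on every array. The same held for 3 annexins outside the member list, *ANXA8L1* (6.61), *ANXA10* (6.31) and *ANXA13* (6.45). A constant summary means that the probes shared no signal here, and it does not show that a transcript was missing.

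By the size of the difference the order was *ANXA1*, *ANXA2*, *ANXA3*, *ANXA5* on S1, *ANXA4*, *ANXA5* on S2 and *ANXA11*. The intervals of *ANXA1* and *ANXA2* did not overlap each other, and neither reached that of *ANXA3*, although that of *ANXA2* overlapped that of *ANXA5* on S1. Those of *ANXA3*, *ANXA4* and both *ANXA5* probe sets overlapped, and that of *ANXA11* lay below all of them.

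The array numbered 4 was the highest in both groups for several annexins. IVM replicate 4 was the highest IVM array in 6 of the 7 varying annexin probe sets, all but *ANXA3*, where 37.1% of all varying probe sets had it highest. Immature replicate 4 was the highest immature array in 5 of the 7, all but *ANXA3* and *ANXA4*, against 24.5% of all varying probe sets. Markers of cumulus and granulosa cells, which surround the oocyte in the follicle, moved in the same way. Of 34 probe sets for 20 of the 21 genes listed, 22 varied, and their mean was highest on replicate 4 in both groups. It lay between 7.32 and 9.08 on the immature and between 8.63 and 10.74 on the IVM arrays. Their summed level, on the log2 scale, lay between 13.55 and 15.54 on the immature and between 14.10 and 17.96 on the IVM arrays. In IVM oocytes this list ordered the arrays as replicates 4, 2, 3, 1 and 5. *ANXA1*, *ANXA4* and both *ANXA5* probe sets had the same order. So did a list of theca, stromal, blood and immune markers, by its 5 varying probe sets, those of *INSL3*, *DCN*, *LUM*, *COL3A1* and *VIM*. How many of all varying probe sets had this order was not counted. The oocyte markers had the opposite order, 5, 1, 3, 2 and 4. In immature oocytes the cumulus and granulosa list had the order 4, 3, 1, 5 and 2, which no annexin probe set shared. The part of these cells in the annexin values was not tested.

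**Figure D3:**
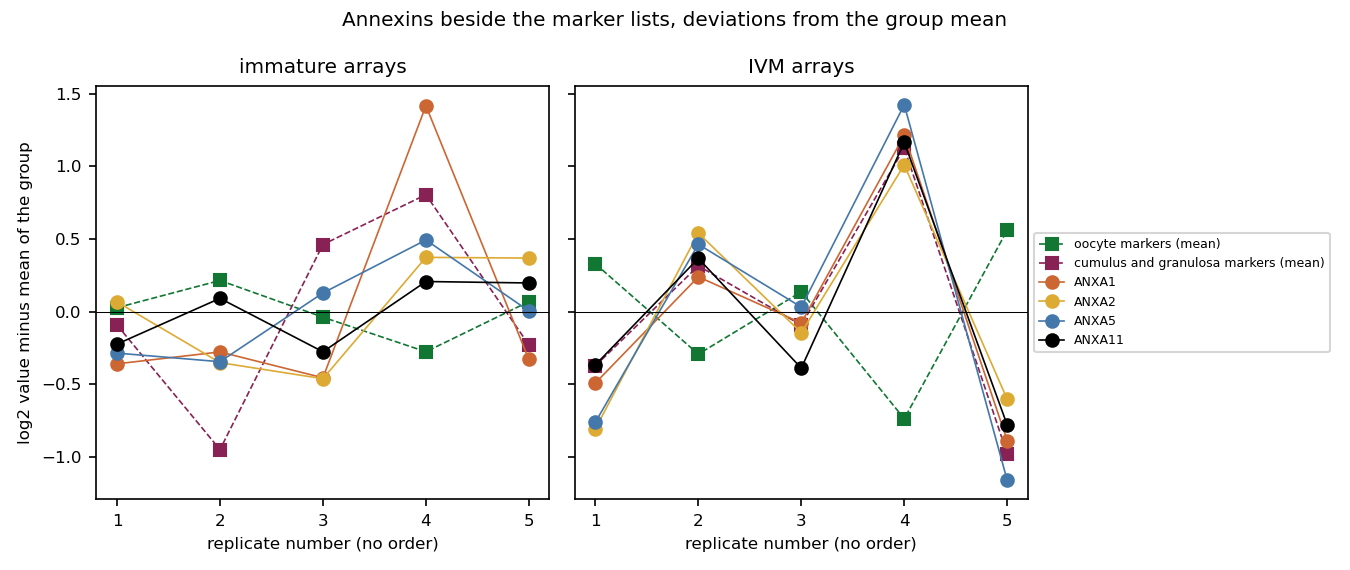
Deviation of each array from the mean of its group (log2 value) for *ANXA1*, *ANXA2*, *ANXA5* (S1) and *ANXA11*, and for the mean of the oocyte markers and of the cumulus and granulosa markers, by replicate number. Lines only join points of one measure. On IVM replicate 4 the 4 annexins and the cumulus and granulosa list lie highest and the oocyte list lies lowest.

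The cumulus and granulosa list did not move as one. Of its 22 varying probe sets, 10 rose, 2 fell and 10 did not pass. Over all varying probe sets, 34.0% were higher and 31.7% lower, or 65.7% either. The median difference of the 22 was 0.27, where the median of all varying probe sets was 0.18. With the block, 2 of the 10 that rose, both of the hyaluronan synthase *HAS2*, did not pass (1.40, adjusted p = 0.0565 from limma, and 0.38, adjusted p = 0.0909). The largest rises were those of *TNFAIP6* (10.86, adjusted p = 7.63e-05 from limma), *PTX3* (6.38, adjusted p = 4.80e-04) and *VCAN* (4.31, adjusted p = 0.00813), which build the hyaluronan matrix of the expanding cumulus. *CYP19A1*, which makes oestrogens (-1.38, adjusted p = 0.00656), and *STAR*, which carries cholesterol into mitochondria (-1.19, adjusted p = 0.00307), fell. Probe sets of the granulosa factors *FOXL2* and *NR5A2*, of the LH receptor *LHCGR* and of the hyaluronan receptor *CD44* did not vary. Of 27 probe sets for theca, stromal, blood and immune markers, 5 varied. In this list *LUM* (4.37, adjusted p = 0.00196) and *DCN* (1.79, adjusted p = 0.00510), proteoglycans of stromal matrix, rose. The collagen gene *COL3A1* passed in the fit over all probe sets with a difference of only 0.0093 (adjusted p = 0.0353 from limma), and it did not pass over the varying probe sets (adjusted p = 0.889) or with the replicate number as a block (adjusted p = 0.156). The theca hormone *INSL3* had 1.88 (95% interval 0.39 to 3.36, adjusted p = 0.0607), and *VIM*, an intermediate filament of mesenchymal cells, had -2.51 (95% interval -5.02 to -0.0042, adjusted p = 0.128). Neither passed over all probe sets, and both did over the varying ones (adjusted p = 0.0153 and 0.0412). Probe sets of *PTPRC*, *CD14*, *CD68*, *PECAM1* and *VWF* did not vary. The mean of the 5 lay between 6.47 and 8.25 on the immature and between 7.40 and 9.80 on the IVM arrays. Their summed level, on the log2 scale, lay between 9.58 and 14.12 on the immature and between 9.94 and 13.03 on the IVM arrays. When both arrays numbered 4 were left out, *ANXA1* had a difference of 4.78 (adjusted p = 4.61e-05 from limma), *ANXA2* 1.78 (adjusted p = 0.0109), *ANXA3* 0.28 (adjusted p = 0.0488) and *ANXA11* -2.91 (adjusted p = 4.52e-04).

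Among oocyte markers, 6 of the 9 varying probe sets fell and *KPNA7*, an importin of oocytes, rose by 0.37 (adjusted p = 0.00575 from limma), which centring on the poly-A controls would turn to a fall, since that centring shifted all differences by -0.94. The largest falls were those of *GTSF1* (-4.87, adjusted p = 6.09e-07 from limma), *GDF9* (-4.42, adjusted p = 3.09e-04) and *NLRP5* (-4.03, adjusted p = 4.79e-05), a piRNA pathway protein, a growth factor for cumulus cells and a maternal-effect protein. *ANXA11* fell as well, as did 31.7% of all varying probe sets. Within groups it did not order the arrays as the oocyte markers did. *ANXA11* was highest on replicate 4 in both groups, where the mean of the oocyte markers was lowest. What lay behind its fall was not tested.

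S100 proteins are small calcium sensors that pair with annexin tails. *S100A11*, the partner of *ANXA1*, rose by 3.08 (standard error 0.56, adjusted p = 0.00347 from limma), from 6.63 ± 0.75 to 9.71 ± 1.01 (SD, n = 5 each). *S100A10*, the partner of *ANXA2*, had differences of 0.46 (adjusted p = 0.628) and 0.21 (adjusted p = 0.725) on its varying probe sets, and neither passed. *S100B*, best known from glia, fell by 2.98 (standard error 0.11, adjusted p = 5.58e-07), from 11.03 ± 0.15 to 8.05 ± 0.21. Of 17 S100 probe sets, 6 varied, 1 rose and 1 fell, and the median of the 6 was 0.33. The background for this list and those that follow is 34.0% higher and 31.7% lower among all varying probe sets.

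A list of penta-EF-hand proteins and calpains had 16 probe sets, of which 8 varied. Penta-EF-hand proteins are calcium sensors that include partners of *ANXA7* and *ANXA11*. The 8 had positive differences, with a median of 0.31, and 3 passed as higher. Among all 9460 varying probe sets, 5435 had positive differences and 34.0% passed as higher. Of the 8, 6 lay under the 0.94 by which centring on the poly-A controls lowered every difference. *PDCD6*, the partner of *ANXA11*, had a difference of 0.28 (adjusted p = 0.162 from limma), and *SRI*, the partner of *ANXA7*, 0.19 (adjusted p = 0.236). Neither passed, and *PDCD6* lay on the other side of 0 from *ANXA11*. The 3 that rose encode calpains, a family of calcium-dependent proteases, namely *CAPN2* (2.41, adjusted p = 0.00552), the small subunit *CAPNS1* (1.99, adjusted p = 0.0415, or 0.0597 with the replicate number as a block) and the atypical *CAPN7* (0.83, adjusted p = 0.00215).

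Other proteins that meet membranes, many but not all of them in a calcium-dependent way, carry C2 domains. Of 20 probe sets for 16 such genes, 10 varied, with a median of 0.41. *SYT11*, a synaptotagmin (1.80, adjusted p = 5.49e-04 from limma), and *CPNE8*, a copine (0.82, adjusted p = 0.0174), rose. *ESYT1*, which tethers the endoplasmic reticulum to the plasma membrane, fell by 2.13 on the log2 scale (adjusted p = 5.94e-05), and *CPNE9* fell by 0.19 (adjusted p = 0.00566, or 0.0570 with the block). Of the ferlins, which act in membrane repair and fusion, *MYOF* had a difference of 2.13 (adjusted p = 0.0581) and *DYSF* one of -0.62 (adjusted p = 0.179), and neither passed.

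Phosphatidylserine, the lipid that *ANXA5* binds, is held on the inner face of the membrane by flippases and exposed by scramblases. Of 7 probe sets for these proteins 3 varied, and *PLSCR4* (3.86, adjusted p = 0.00148 from limma) and *PLSCR2* (1.49, adjusted p = 0.00233), of the phospholipid scramblase family, rose. The share of all varying probe sets that rose was 34.0%. *FPR1*, *FPR2* and *FPR3*, the receptors of *ANXA1*, were not found by symbol and were not analysed here. Of 13 probe sets for phospholipases A2 and prostaglandin synthases 6 varied, with a median of 0.59. *PLA2G16*, a phospholipase of lipid metabolism (2.57, adjusted p = 0.00115), *PTGS2*, the inducible prostaglandin synthase (1.31, adjusted p = 0.00270), and *PTGS1*, the constitutive one (0.68, adjusted p = 0.0303), rose. A second *PTGS2* probe set had 0.49 (adjusted p = 0.0652). *PLA2G12A*, a secreted phospholipase A2, fell by 4.50 (standard error 0.18, adjusted p = 6.08e-07).

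The plasminogen system meets the *ANXA2* complex at the cell surface. Of its 6 probe sets 4 varied, and 3 rose, the tissue activator *PLAT* (7.85, standard error 0.70, adjusted p = 6.68e-05 from limma), the urokinase *PLAU* (3.41, adjusted p = 1.16e-04) and the urokinase receptor *PLAUR* (1.58, adjusted p = 0.00167). Among all varying probe sets, 34.0% rose. Both probe sets of *PLG*, plasminogen itself, did not vary. With centring on the poly-A controls, which moved each of these differences by the same -0.94, those of *CAPN7*, *CPNE8*, *PTGS1*, *PDCD6*, *SRI* and *S100A10*, among others, became negative.

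**Figure D4:**
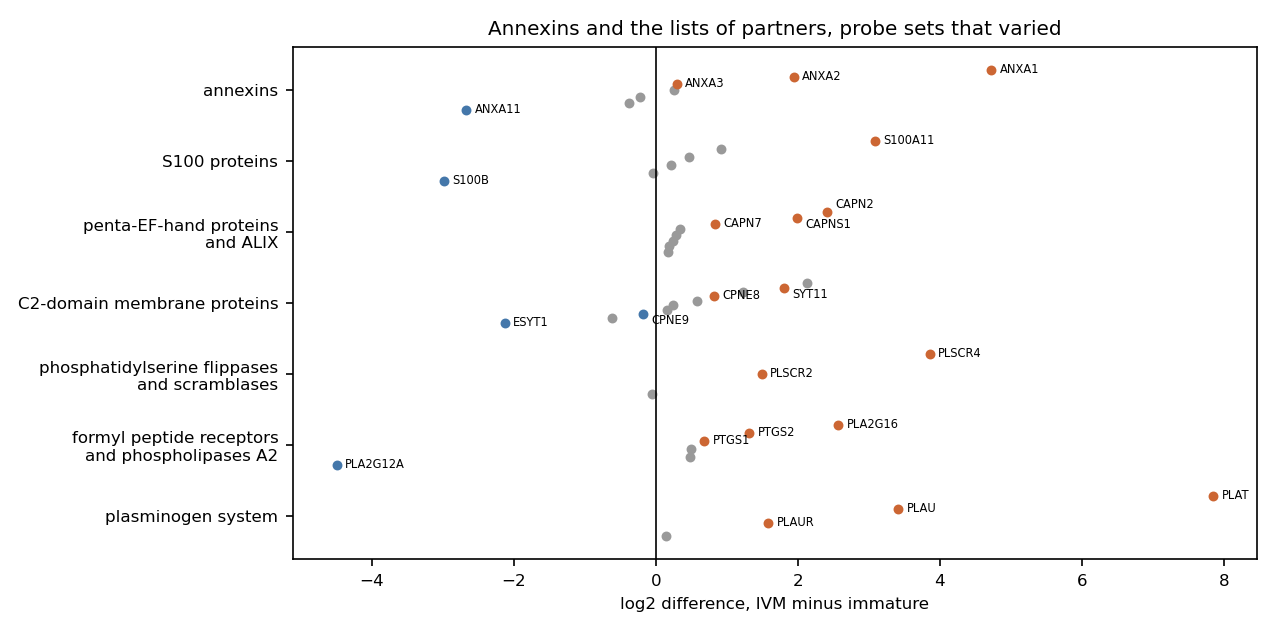
Log2 difference, IVM minus immature, of each varying probe set of the annexins and of the 6 lists of related genes. Orange marks higher and blue lower values in IVM oocytes at an adjusted p under 0.05 from limma, with the symbol, and grey marks probe sets that did not pass. The largest difference is that of *PLAT* (7.85) and the lowest that of *PLA2G12A* (-4.50).

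The patterns of the 6 annexin probe sets that spanned at least 2 on the log2 scale, which leaves out *ANXA3*, were also set against 6100 varying probe sets with 1 gene symbol, as the root mean square difference of values centred over the 10 arrays. Nearest to *ANXA1* were *RND3*, a small GTPase of the cytoskeleton (0.313), *TMEM176B* (0.323) and *TMEM37* (0.352). Nearest to *ANXA2* were *PDK4*, a kinase of pyruvate dehydrogenase (0.297), *AMIGO2* (0.300) and the matrix gene *DCN* (0.300). Nearest to *ANXA11* were *HPS4*, a protein of lysosome-related organelles (0.125), *GPR89A* (0.164) and *ACAA2*, a thiolase (0.178). The patterns nearest to *ANXA4* were those of *P4HB*, a disulfide isomerase (0.262), *AMH*, the anti-Müllerian hormone of granulosa cells (0.263), and *PRXL2B* (0.272). Nearest to *ANXA5* on S1 were *ZDHHC4* (0.161), *ARPC5*, a subunit of the actin-nucleating complex (0.182), and *YBX3* (0.214), and on S2 *QARS1* (0.226), *DNAJC10* (0.271) and *ILF2* (0.273). The names nearest to *ANXA5* thus differed between its probe sets. These are descriptions over 10 arrays that share their libraries and normalization.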

How the data were processed

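RNA of 5 immature and 5 IVM oocyte pools was amplified, labelled and hybridized, 1 Affymetrix Bovine Genome Array for each pool. The authors read the images with GCOS and summarised probes by FARMS with quantile normalization, and what they deposited is on the log2 scale. FARMS gives nearly one value on all arrays where probes share no signal. Its background handling and probe weights could not be varied here, and scale differences between arrays had been removed before deposit.

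Control probe sets (112) were left out. The other 24016 were fitted with limma 3.58.1 (lmFit, eBayes) under R 4.3.3, and p-values were adjusted by Benjamini-Hochberg over all of them. Calls were counted at 0.0001 and at 0.05, the threshold behind "rose" and "fell" here. The study used 0.0001 as a false discovery rate in SAM over informative probe sets, so its calls are not those of limma here. Symbols came from the platform annotation: 13263 were updated through gene identifiers, 29 kept, 86 named several genes and 10638 were unnamed here. A near-constant probe set can pass limma with a difference under 0.01, so list counts cover those spanning at least 0.01. The prior had 0.103 degrees of freedom over all probe sets and 1.86 over those that varied. The fit was also run on simulated data with independent noise for each probe set. Such data leave out deviations that probe sets share on an array, so that run does not bear on them. The members and lists were chosen with earlier results of these data known. Genes named are the annexins, up to 3 called members of each list with the largest rise and fall, partners named with the lists, and the 3 nearest patterns of each annexin spanning at least 2. Others (*MYOF*, *DYSF*, *VIM*, *INSL3*, *HAS2*, *PLG*, the second *PTGS2* probe set, *FPR3*, other annexins and markers that did not vary) were named after their values were seen.

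The study's methods equate replicates with collection days, so arrays of equal number were taken as a pair. Across varying probe sets, deviations of same-numbered arrays from their group means correlated with r = 0.143, -0.347, 0.0872, 0.672 and 0.359 for replicates 1 to 5, so replicates 2 and 3 do not show the pairing. Columns left unused numbered 0, and the number of arrays limits the precision. Python 3.11.15 with pandas 2.3.3, numpy 2.4.6 and matplotlib 3.10.9 made tables and plots.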

Additional observations from a re-analysis of the deposited data

Results flagged for a closer look

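Immature replicate 4 stood apart from the other immature arrays for *ANXA1*, at 7.01, with a gap of 1.69 on the log2 scale to the next array, which is 0.905 of the range of the group. Of 14 groups of 5 arrays examined by the same outlier rule, 1 was picked out, and the rule picks out about 1 in 20 by chance. That rate belongs to the rule and not to a gap of this size, and the groups share their arrays.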

How the results depend on the processing

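The 4 calls among the 7 varying annexin probe sets kept their direction and side of 0.05 in every fit that left out 1 array. Differences then ran from 4.42 to 5.08 for *ANXA1*, 1.69 to 2.14 for *ANXA2*, 0.26 to 0.34 for *ANXA3*, -2.96 to -2.48 for *ANXA11*, -0.54 to 0.034 for *ANXA4*, -0.10 to 0.55 for *ANXA5* S1 and -0.70 to -0.06 for *ANXA5* S2. The sign of *ANXA4* turned without immature replicate 3 (0.034) or 4 (0.0012), and that of *ANXA5* S1 without IVM replicate 4 (-0.10). At 0.0001, annexins called lower numbered 0 to 1 in these fits, and all probe sets 77 to 318 higher and 703 to 1097 lower, the lowest without immature replicate 5.

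With the replicate number as a block, *ANXA3* had the same 0.29 but did not pass 0.05, and 0 probe sets passed 0.0001 in either direction, while the block changed no other annexin call at 0.05 over all probe sets. At 0.0001, 1 annexin (*ANXA1*) was higher with the block over varying probe sets, with varying probe sets only, with those at or above the median level, with arrays centred on their medians, quantile normalized again or centred on poly-A controls, and without both arrays numbered 4 (over all or varying probe sets). There 1 (*ANXA11*) was lower with varying probe sets only, poly-A centring, and without both arrays numbered 4 over varying probe sets. All probe sets called higher at 0.0001 numbered 685 (varying only), 393 (above the median level), 382 (medians centred), 396 (quantile again), 105 (without both arrays numbered 4) and 704 (the same, varying only), and 683 were lower without both arrays numbered 4. Leaving out both was chosen after seeing the data.

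Poly-A centring moved the median of all probe sets by -0.94 and gave 18661 lower at 0.0001, and 807 higher and 20427 lower at 0.05. It turned *ANXA3* to -0.64 and *ANXA5* S1 to -0.68, and 4 of the 7 varying annexin probe sets were lower at 0.05, among them *ANXA4* (-1.15) and *ANXA5* S2 (-1.31). Immature replicates 4 and 5 against IVM left 1 annexin higher at 0.05, with *ANXA2* at 1.57 and *ANXA3* at 0.32 not passing, 1235 probe sets higher and 2177 lower, and 0 higher and 4 lower at 0.0001. The cause of these changes was not tested.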
